A study of Mus musculus with 19 samples.

Results

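Cish, Pim1, Mcl1 and Csf2rb2 are genes of interleukin-3 signalling: a receptor chain (Csf2rb2), a feedback inhibitor (Cish), a kinase (Pim1) and a survival factor (Mcl1). They were taken as every array probe whose single gene symbol is one of these names, which gave 5 of 20205 probes. Mcl1 had 2 probes and the other genes 1 each. After averaging over probes of a gene, they were 4 of 16148 features, and all 5 probes had a value on all 19 arrays.

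The arrays measured RNA of FDCPmix, a mouse blood progenitor line that depends on interleukin-3 for growth and survival. On each 2-colour array, RNA of treated cells (the own RNA) was set against a reference RNA in the other dye. Treated cells with no time stated had non-treated cells as reference (4 arrays). Cells at 3 h, 7 h and 12 h (4 arrays each) and at 23 h (3 arrays) after tamoxifen had treated cells at 0 h as reference. Every time group and its reference had therefore been treated, and the 15 time arrays share that 0 h reference. The own RNA was in Cy5 for replicates 1 and 2 and in Cy3 for replicates 3 and 4. Replicate 2 at 23 h was not analysed here. Tamoxifen is a ligand of the oestrogen receptor, and the labels name no construct that it would switch on. An ES cell line is named in the sample titles as well, with no explanation in the labels. Nothing in the labels says that the arrays of a group came from separate cultures, so p-values measure the spread between these arrays, which may be technical. The values are ratios with no levels, so the labelled cell type could not be checked by the level of its markers.

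Interleukin-3 binds a receptor made of an alpha chain (Il3ra) and a beta chain. Mice have a shared beta chain (Csf2rb), also used for interleukin-5 and GM-CSF, and a close copy of it that serves interleukin-3 alone (Csf2rb2). The bound receptor activates the kinase JAK2, which phosphorylates STAT5, and STAT5 then binds DNA and induces transcription. Cish is an early STAT5 target and dampens signalling at the receptor, Pim1 is a serine/threonine kinase that supports growth and survival, and Mcl1 is a short-lived BCL2 family protein that holds back apoptosis. In progenitors that need interleukin-3, Cish and Pim1 are widely used as readouts of the cytokine signal.

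The deposited log ratios, read here as log2, carried no stated numerator, so the direction is not settled. Signs are given as deposited. If the own RNA is the numerator, a value below 0 means less of that RNA in the cells of the named group than in the reference, and if the reference is the numerator every sign turns. In a second reading, the columns hold 1 dye over the other and the sign of every Cy3 array must be changed. It is given beside the main results of the 4 genes, and not for the other genes named here. Under that reading, a gene with the same sign in both dye orientations shows a difference between dyes and not between samples. The labels do not settle which reading holds. Each array repeated 1 extreme value, which was set to missing. That value was positive on Cy5 arrays and negative on Cy3 arrays, apart from 7 h replicate 4, a Cy3 array on which it was 16.3. A further array, 23 h replicate 3, had a deposited median of 0.23 and a mean Pearson correlation of -0.17 with the other 23 h arrays over 14855 features. Both arrays are in doubt, and results are given with all 19 arrays and with the other 17. The second array was noticed from its values, so a smaller spread without it is partly built in. Mean correlations of an array with its group were low throughout, at most 0.115 (3 h replicate 2). They were -0.065 to 0.02 for the treated arrays and -0.079 for 23 h replicate 1. For 7 h replicate 3, not in doubt, the value was -0.062, below the -0.027 of 7 h replicate 4.

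STAT5 binds the palindrome TTCNNNGAA, in which N is any base and which reads the same on both strands. It was searched in the 250 bases before each annotated start (RefSeq, GRCm38.p6), and all 4 genes had a window there. The windows of Csf2rb2, the single gene of the 4 with a match, and of Cish, without one, are shown 5′ to 3′ on the gene's strand with a match in capitals. The Csf2rb2 window is chr15:78305722-78305971 on the minus strand, and the Cish window is chr9:107296409-107296658 on the plus strand.
Csf2rb2: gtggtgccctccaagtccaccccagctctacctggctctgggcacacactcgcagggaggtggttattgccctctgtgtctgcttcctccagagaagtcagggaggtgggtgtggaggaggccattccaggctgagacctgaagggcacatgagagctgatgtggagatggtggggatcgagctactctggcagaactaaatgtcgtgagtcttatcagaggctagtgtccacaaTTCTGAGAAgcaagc
Cish: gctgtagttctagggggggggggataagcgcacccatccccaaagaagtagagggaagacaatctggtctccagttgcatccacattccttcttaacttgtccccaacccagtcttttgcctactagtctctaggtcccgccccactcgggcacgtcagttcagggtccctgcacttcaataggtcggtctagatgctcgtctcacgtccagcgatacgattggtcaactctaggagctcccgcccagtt
The match in Csf2rb2, TTCTGAGAA, has its first base 15 bases before the start. The windows of Mcl1 and of Pim1, which has 2 annotated starts, held no match. Of 32851 windows in the table, 2306 held at least 1 match, or 7.02%. A match is a string of letters and not a measured binding site, and its absence says only that these letters are not in the window.

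The receptor chain Csf2rb2 had negative log2 ratios in treated cells and at the later times, and values on both sides of 0 at 3 h. In treated cells the 4 arrays gave -0.47, -0.13, -0.47 and -0.45, a mean of -0.38 ± 0.16 (SD, n = 4). At 3 h the log2 ratios were 0.015, 0.13, -0.04 and -0.14, with a mean of -0.01 ± 0.11 (SD, n = 4), so the arrays lay around the reference. The 7 h arrays gave -0.28, -0.15, -0.34 and 0.39, the last from the array in doubt. At 12 h all 4 arrays were below 0, at -0.43, -0.34, -0.18 and -0.53, with a mean of -0.37 ± 0.15 (SD, n = 4). At 23 h, replicates 1 and 4 were at -0.66 and -0.44 and replicate 3, in doubt, was at 0.56. All 4 arrays at 12 h lay below all 4 at 3 h, whereas the 7 h and 23 h groups, with their arrays in doubt, overlapped every other time. Without those arrays the order from lowest was 23 h (-0.55 ± 0.15, SD, n = 2), 12 h, 7 h (-0.26 ± 0.10, SD, n = 3) and 3 h. Neighbours in that order overlapped, apart from 7 h and 3 h. Probe values of Csf2rb2 may include RNA of its near-identical copy Csf2rb.

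Cish, which codes for the feedback inhibitor, was below 0 on every array other than the pair in doubt. In treated cells it stood at -0.63, -0.24, -0.49 and -0.68, with a mean of -0.51 ± 0.20 (SD, n = 4). At 3 h the log2 ratios were -0.41, -0.67, -0.31 and -0.28, a mean of -0.42 ± 0.18 (SD, n = 4). The values at 7 h were -0.39, -0.25, -0.40 and, on the array in doubt, 0.29. Ratios nearest to 0 came at 12 h, with -0.17, -0.08, -0.09 and -0.33 and a mean of -0.17 ± 0.11 (SD, n = 4). At 23 h replicates 1 and 4 gave -0.68 and -0.42, and replicate 3 gave 0.25. Among the times without the arrays in doubt, the order from lowest was 23 h (-0.55 ± 0.18, SD, n = 2), 3 h, 7 h (-0.35 ± 0.08, SD, n = 3) and 12 h. Every pair of neighbours in that order overlapped.

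Pim1, the kinase, had the smallest spread of the 4 genes over the 17 arrays not in doubt, with an SD of 0.11 around a mean of -0.32. Its log2 ratios in treated cells were -0.39, -0.15, -0.42 and -0.35, a mean of -0.33 ± 0.12 (SD, n = 4). At 3 h they were -0.28, -0.44, -0.29 and -0.27, with a mean of -0.32 ± 0.08 (SD, n = 4). At 7 h 3 arrays lay between -0.35 and -0.28, and the array in doubt was at 0.30. The 12 h arrays spread more widely, at -0.22, -0.05, -0.42 and -0.49, with a mean of -0.30 ± 0.20 (SD, n = 4). At 23 h replicates 1 and 4 were at -0.38 and -0.31, and replicate 3 was at 0.42. Without the arrays in doubt the time means ran from -0.35 ± 0.05 at 23 h (SD, n = 2) over -0.32 at 3 h and -0.31 ± 0.04 at 7 h (SD, n = 3) to -0.30 at 12 h, and all 4 groups overlapped.

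Mcl1, the survival factor, was furthest below 0 in treated cells, and its means at 7 h, 12 h and 23 h lay nearer to 0 than at 3 h. The treated arrays gave -0.54, -0.40, -0.51 and -0.25, a mean of -0.42 ± 0.13 (SD, n = 4). The 3 h arrays lay close together, at -0.21, -0.29, -0.21 and -0.22, with a mean of -0.23 ± 0.04 (SD, n = 4). At 7 h the log2 ratios fell on both sides of 0, at 0.16, -0.06, -0.32 and, in doubt, 0.09. At 12 h they were -0.08, 0.02, 0.0015 and -0.43, a mean of -0.12 ± 0.21 (SD, n = 4). With 1 array left out, the fitted value ran from -0.17 (without replicate 3) to -0.02 (without replicate 4). The 23 h arrays were all near 0, with -0.10 and -0.12 on replicates 1 and 4 and 0.05 on replicate 3. On 7 h replicate 4, in doubt, Mcl1 lay inside the range of the other 7 h arrays, unlike Cish, Pim1 and Csf2rb2. Both probes, numbered 13306 and 17869 in the files, were below 0 on all treated arrays, with means of -0.48 ± 0.14 and -0.36 ± 0.16 (SD, n = 4). They had a Pearson correlation of 0.48 over 19 arrays and lay on the same side of 0 on 13 of them. The 7 h arrays separated them most: probe 13306 ran from -0.64 to 0.32, and probe 17869 from -0.005 to 0.05.

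**Figure D1:**
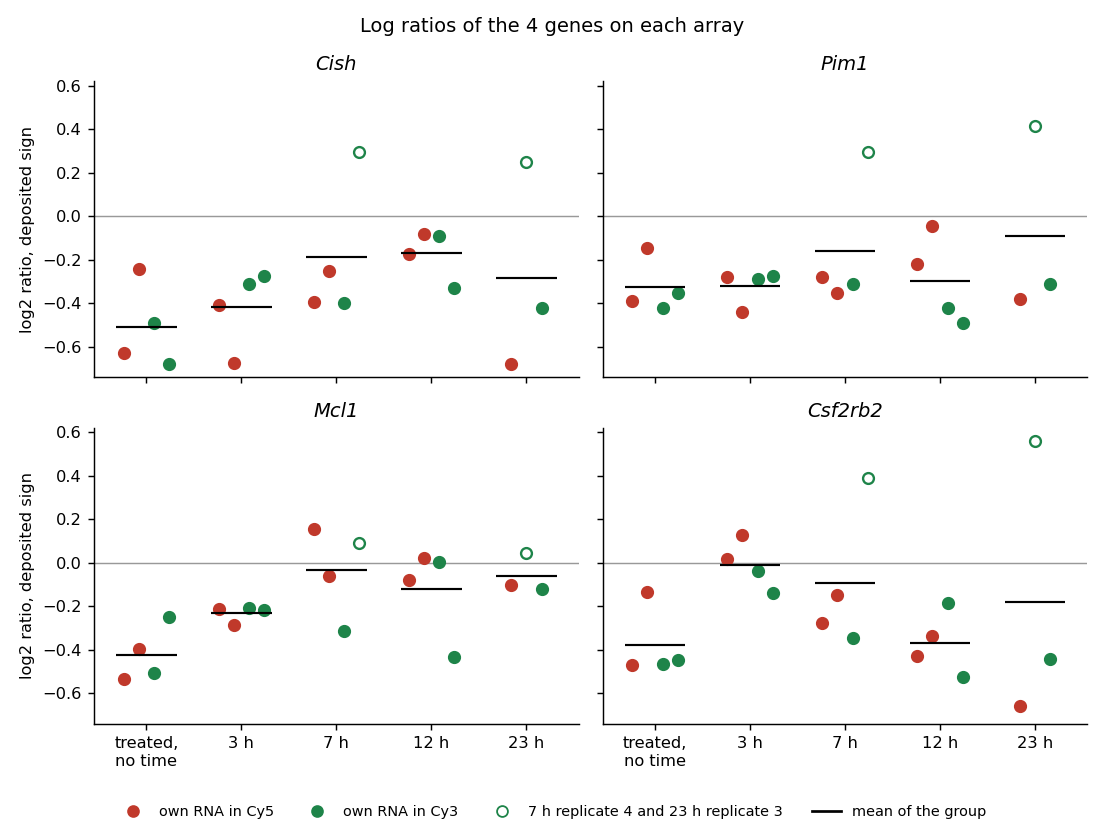
Log2 ratios with the deposited sign (y axis) of Cish, Pim1, Mcl1 and Csf2rb2 on each of the 19 arrays, by group (x axis), centred on each array's median. Filled points are coloured by the dye of the own RNA, open points are 7 h replicate 4 and 23 h replicate 3, and bars are group means. Cish and Pim1 lie below 0 on all filled points, Csf2rb2 straddles 0 at 3 h, and the open points lie above 0 for all 4 genes.

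Each group was tested against its reference with limma on all features, with a term for the dye. In treated cells, Mcl1 and Cish passed at an adjusted p under 0.05, both below 0, and Pim1 and Csf2rb2 did not. The log2 ratio of Mcl1 was -0.42 (SE 0.08, limma adjusted p = 0.0139) and that of Cish was -0.51 (SE 0.13, limma adjusted p = 0.0366). Pim1 was at -0.33 (SE 0.12, limma adjusted p = 0.138) and Csf2rb2 at -0.38 (SE 0.15, limma adjusted p = 0.156). Of all 15915 features tested, 758 were called, or 4.76%, and 2.38% were called below 0. All 4 genes were below 0 on all 4 treated arrays, as were 7.59% of features with values on all of them. In rank, 3.32% of features had a treated log2 ratio at or below that of Cish, 4.77% at or below Mcl1, 5.88% at or below Csf2rb2 and 7.58% at or below Pim1.

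The calls in treated cells depended on which arrays gave the spread. Leaving out both arrays in doubt left the 4 treated estimates as they were and lowered the pooled spread of Cish, Pim1 and Csf2rb2. All 4 genes then passed below 0, at limma adjusted p = 0.00668 for Cish, 0.0154 for Mcl1, 0.0154 for Csf2rb2 and 0.0213 for Pim1, with 4.44% of features called and 2.34% called below 0. With the spread taken from the treated arrays alone, none of the 4 passed: the limma adjusted p was 0.792 for Cish and for Mcl1, and 0 features were called. Cish lost its call without treated replicate 1 (limma adjusted p = 0.0719), replicate 3 (0.0724) or replicate 4 (0.107), while Mcl1 passed in all 19 fits that left out 1 array. With the signs of the Cy3 arrays changed, the treated log2 ratios were 0.08 for Cish, 0.06 for Pim1, -0.05 for Mcl1 and 0.08 for Csf2rb2, and none passed. The treated arrays were also the most variable: the log ratios of their spots had SDs from 0.62 to 0.64, compared with 0.24 to 0.36 for arrays of the time course.

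**Figure D2:**
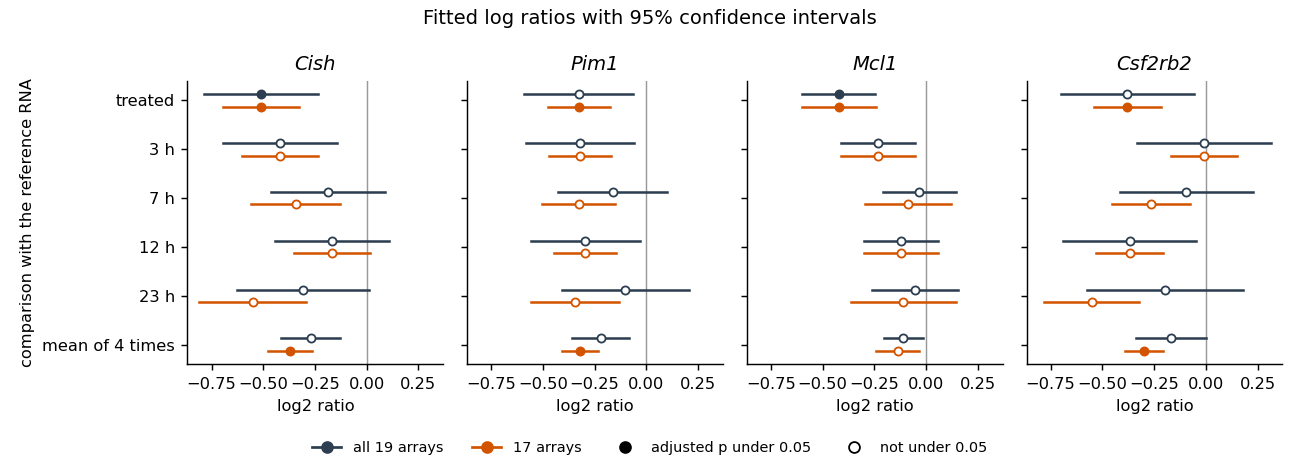
Fitted log2 ratios (x axis, deposited sign) of the 4 genes in each comparison with the reference RNA (y axis), with 95% confidence intervals from limma, on all 19 arrays and on 17. Filled points have an adjusted p under 0.05: Cish and Mcl1 in treated cells on 19 arrays, all 4 genes there on 17 arrays, and Cish, Pim1 and Csf2rb2 in the mean of the 4 times on 17 arrays.

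In the time course, none of the 4 genes passed at any single time on all 19 arrays. At 3 h the log2 ratio of Cish was -0.42 (SE 0.13, unadjusted p = 0.00536 and limma adjusted p = 0.887), that of Pim1 was -0.32 (SE 0.12, limma adjusted p = 0.887) and that of Mcl1 was -0.23 (SE 0.08, limma adjusted p = 0.887). Csf2rb2 was at -0.01 there (SE 0.15, limma adjusted p = 1.0). No feature passed at 3 h (0% of 16108; 865 had an unadjusted p under 0.05). Cish, Pim1 and Mcl1 were below 0 on all 4 arrays at 3 h, as were 10.5% of features. The 3 h ratio of Cish was low among all features, with 0.888% of them at or below it, against 1.64% for Pim1, 3.64% for Mcl1 and 47.5% for Csf2rb2.

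At 7 h the fitted log2 ratios were -0.19 for Cish, -0.16 for Pim1, -0.03 for Mcl1 and -0.09 for Csf2rb2 (limma adjusted p = 1.0 each). There, 0% of 16087 features passed (542 had an unadjusted p under 0.05), and none of the 4 genes was below 0 on all 4 arrays, against 6.82% of features. At 12 h Csf2rb2 had -0.37 (SE 0.15), Pim1 -0.30 (SE 0.12), Cish -0.17 (SE 0.13) and Mcl1 -0.12 (SE 0.08), again with limma adjusted p = 1.0 each, and 3 of 16089 features passed (0.0186%). Csf2rb2, Cish and Pim1 were below 0 on all 4 arrays at 12 h, as were 7.01% of features. The receptor chain was the lowest of the 4 at 12 h, with 0.864% of features at or below it. At 23 h Cish had a fitted log2 ratio of -0.31 (SE 0.15), Csf2rb2 -0.20 (SE 0.18), Pim1 -0.10 (SE 0.14) and Mcl1 -0.05 (SE 0.10), with limma adjusted p = 1.0 each and 0% of 16116 features called (274 had an unadjusted p under 0.05). None was below 0 on all 3 arrays at 23 h, against 9.42% of features.

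Without the arrays in doubt, the fitted ratios at 7 h and 23 h lay further below 0, but no single time was called for any of the 4 genes. At 7 h Cish stood at -0.34 (limma adjusted p = 0.354), Pim1 at -0.33 (0.208), Csf2rb2 at -0.27 (0.477) and Mcl1 at -0.09 (1.0), with 0.217% of features called. At 23 h Csf2rb2 stood at -0.55 (limma adjusted p = 0.0675), Cish at -0.55 (0.161), Pim1 at -0.35 (0.451) and Mcl1 at -0.11 (1.0), with 0.186% called. At 3 h the adjusted p was 0.136 for Cish and 0.199 for Pim1 with 0.112% of features called, and at 12 h it was 0.119 for Csf2rb2 and 0.235 for Pim1 with 0.162% called.

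Averaged over the 4 times, a comparison added after the data were seen, the genes lay below the 0 h reference on the deposited sign. On all 19 arrays the mean log2 ratio was -0.27 for Cish (SE 0.07, limma adjusted p = 0.929), -0.22 for Pim1 (SE 0.06, 0.929), -0.17 for Csf2rb2 (SE 0.08, 1.0) and -0.11 for Mcl1 (SE 0.04, 1.0), with 0% of 16024 features called (672 had an unadjusted p under 0.05). On 17 arrays it was -0.37 for Cish (SE 0.05, limma adjusted p = 0.00115), -0.32 for Pim1 (SE 0.04, 0.000709) and -0.30 for Csf2rb2 (SE 0.04, 0.0024), and all 3 passed. Mcl1 was at -0.14 (SE 0.05) and did not pass (limma adjusted p = 0.35). Of 16040 features, 193 passed on 17 arrays (1.2%), and 0.804% passed below 0. With either array in doubt left out alone none of the 4 passed: without 23 h replicate 3 the limma adjusted p was 0.0515 for Cish and 0.0743 for Pim1, and without 7 h replicate 4 it was 0.0694 and 0.12. With the signs of the Cy3 arrays changed, the 17 arrays gave -0.04 for Cish, 0.02 for Pim1, 0.07 for Mcl1 and 0.0071 for Csf2rb2, and none passed.

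**Figure D3:**
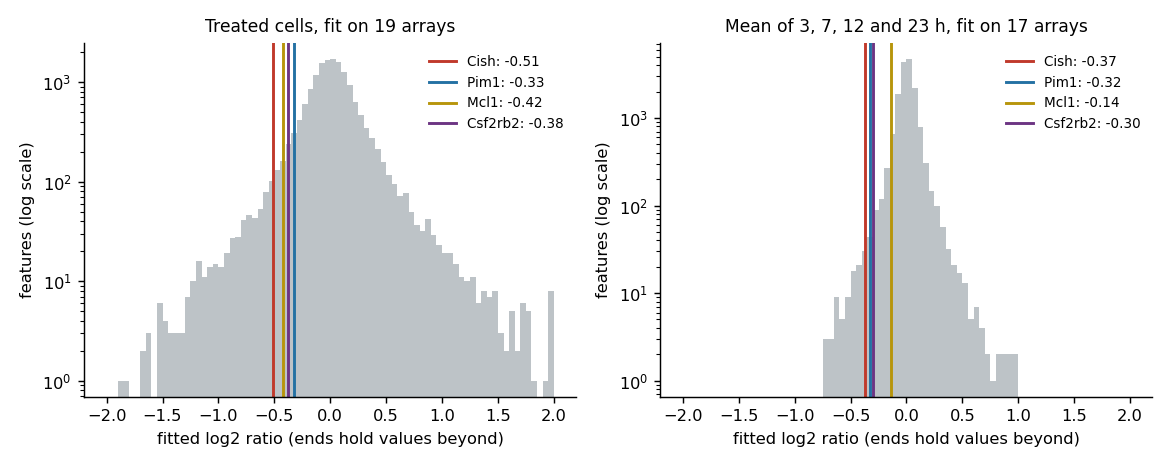
Number of features (y axis, log scale) by fitted log2 ratio (x axis, deposited sign), for treated cells on 19 arrays and for the mean of 3, 7, 12 and 23 h on 17 arrays, with the 4 genes as vertical lines. In treated cells the 4 lines lie between -0.51 and -0.33, and in the mean of the times Cish, Pim1 and Csf2rb2 lie between -0.37 and -0.30, with Mcl1 at -0.14.

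Differences between the times were tested directly. From 3 h to 23 h on all 19 arrays the log2 ratio differed by -0.19 for Csf2rb2 (SE 0.23), 0.11 for Cish (SE 0.20), 0.22 for Pim1 (SE 0.19) and 0.18 for Mcl1 (SE 0.13), with limma adjusted p = 1.0 each. No feature passed (0% of 16087; 410 had an unadjusted p under 0.05). Without the arrays in doubt the difference for Csf2rb2 was -0.54 (SE 0.13, 95% interval -0.82 to -0.26, unadjusted p = 0.001, limma adjusted p = 0.542). The other differences were then -0.13 for Cish (95% interval -0.45 to 0.18), -0.03 for Pim1 (-0.29 to 0.23) and 0.12 for Mcl1 (-0.19 to 0.43), with 0.0746% of features called. An F test over the 4 times called none of the 4 genes on 19 arrays (limma adjusted p = 1.0 each; 0% of 16024 features, with 380 at an unadjusted p under 0.05). On 17 arrays Csf2rb2 had F = 6.99 (unadjusted p = 0.00458, limma adjusted p = 1.0), with 0.0436% of features called. The lower ratio of the receptor chain at 23 h than at 3 h therefore did not pass over all features.

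All 4 genes were above 0 on both arrays in doubt, a sign that Cish and Pim1 had on no other array, Mcl1 on 3 others and Csf2rb2 on 2. On 7 h replicate 4 the log2 ratio was 0.29 for Cish, 0.30 for Pim1, 0.09 for Mcl1 and 0.39 for Csf2rb2. On 23 h replicate 3 it was 0.25, 0.42, 0.05 and 0.56. The Mcl1 values are means of 2 probes, and probe 13306 alone was at -0.03 on 23 h replicate 3. Of 14855 features with values on all arrays, 24.5% were above 0 on both arrays in doubt. On the other 17 arrays Cish and Pim1 were below 0 on all 17, as were 42 features in all (0.283%). Csf2rb2 was below 0 on 15, which 1.49% of features reached or passed, and Mcl1 on 14, which 2.63% did. These counts describe arrays that are not independent, since 13 of the 17 share the 0 h reference. No feature was below 0 on all 19 arrays.

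The other receptor chains differed from each other. Csf2rb, the shared beta chain, had treated log2 ratios of -0.23, -0.33, -0.63 and -0.30, all below 0, and a fitted value of -0.37 (SE 0.15, limma adjusted p = 0.164). Its 3 h ratios, -0.17, -0.28, -0.18 and -0.34, all lay below the lowest 3 h value of Csf2rb2. On 17 arrays Csf2rb passed in treated cells (limma adjusted p = 0.00942) and in the mean of the 4 times, at -0.25 (SE 0.04, limma adjusted p = 0.00403). The beta chain genes had a Pearson correlation of 0.49 over 19 arrays and 0.03 over 17. The alpha chain Il3ra stayed between -0.27 and 0.19 on every array, with a treated value of -0.05 (SE 0.07, limma adjusted p = 0.734) and a mean of -0.04 over the 4 times on 17 arrays (limma adjusted p = 1.0).

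Of 119 genes of the pathway on 7 lists, 74 were measured, including the 4 genes. In treated cells on 19 arrays 9 of the 74 passed, 4 above 0 and 5 below, where 4.76% of all features passed and 2.38% passed below 0. Below 0 were Cish, Mcl1, Cdkn1a (a cell cycle inhibitor, -0.50), Map2k1 (a MAP kinase kinase, -0.42) and Bcl2 (a survival factor related to Mcl1, -0.35). Above 0 were Nras (a RAS protein, 0.70, with 3 arrays), Bid (a death-promoting BCL2 relative, 0.38), Pik3ca (a catalytic subunit of PI3 kinase, 0.31) and Pias2 (a STAT inhibitor family member, 0.24). The median log2 ratio of the 74 genes was -0.03 and 43 were below 0, against a median of 0.009 and 47.9% below 0 over all features. On 17 arrays 13 of the 74 passed, 3 above 0 and 10 below, against 4.44% of all features and 2.34% below 0. Those gained, all below 0, were Pim1, Csf2rb2, Csf2rb, Ier3 (-0.59) and the PI3 kinase subunit Pik3cd (-0.34), while Bid was lost. Of the 25 measured interleukin-3 and STAT5 targets, 3 passed below 0 on 19 arrays (Cish, Mcl1 and Cdkn1a). On 17 arrays 5 did so (Pim1 and Ier3 as well), and none passed above 0. Apart from the 4 genes, that leaves Cdkn1a on 19 arrays, and Cdkn1a and Ier3 on 17. The median of the 25 targets on 19 arrays was -0.03 and 16 were below 0, against 0.009 and 47.9% over all features. Since the 4 genes are on the 7 lists, the counts over all lists without them were 7 of 70 on 19 arrays and 9 of 70 on 17.

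At single times none of the 74 genes passed on 19 arrays. The smallest p among them belonged to Cish and Map2k1 at 3 h (-0.42 and -0.31), to Hdc and Spry2 at 7 h (0.22 and -0.48), to Csf2rb2 and Ier3 at 12 h (-0.37 and -0.52) and to Socs5 and Socs2 at 23 h (-0.30 and -0.18). On 17 arrays 1 gene, Ier3, an immediate early gene tied to survival, passed at each of the 4 times. Its log2 ratios were -0.61 at 3 h, -0.74 at 7 h, -0.52 at 12 h and -0.62 at 23 h (limma adjusted p = 0.00583, 0.00601, 0.0135 and 0.0443). The 23 h group then had 2 arrays. On the arrays left out Ier3 was at 0.78 (7 h replicate 4) and 0.55 (23 h replicate 3). On the 17 arrays Ier3 was below 0 in both dye orientations, which under the second reading of the signs is a difference between dyes. In the mean of the 4 times on 17 arrays, 9 of the 74 passed below 0 and none above, against 0.804% of all features below 0 and 1.2% in either direction. Beside Cish, Pim1 and Csf2rb2 these were Ier3 (-0.62), Csf2rb (-0.25), the stress pseudokinase Trib3 (-0.22), Cdkn1a (-0.22), Pik3cd (-0.21) and the AP-1 subunit Junb (-0.20). Without the 4 genes described here, the count was 6 of 70. The median of the 74 was -0.01 and 40 were below 0, against 0.004 and 47.2% over all features. The 7 measured JAK and STAT genes had a median of 0.06, 1 of the 7 below 0 and none called. Among other targets of the list, the log2 ratios of Socs2, Id1, Bcl2l1 and Hdc lay on both sides of 0 among the 17 arrays and none of these genes passed.

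**Figure D4:**
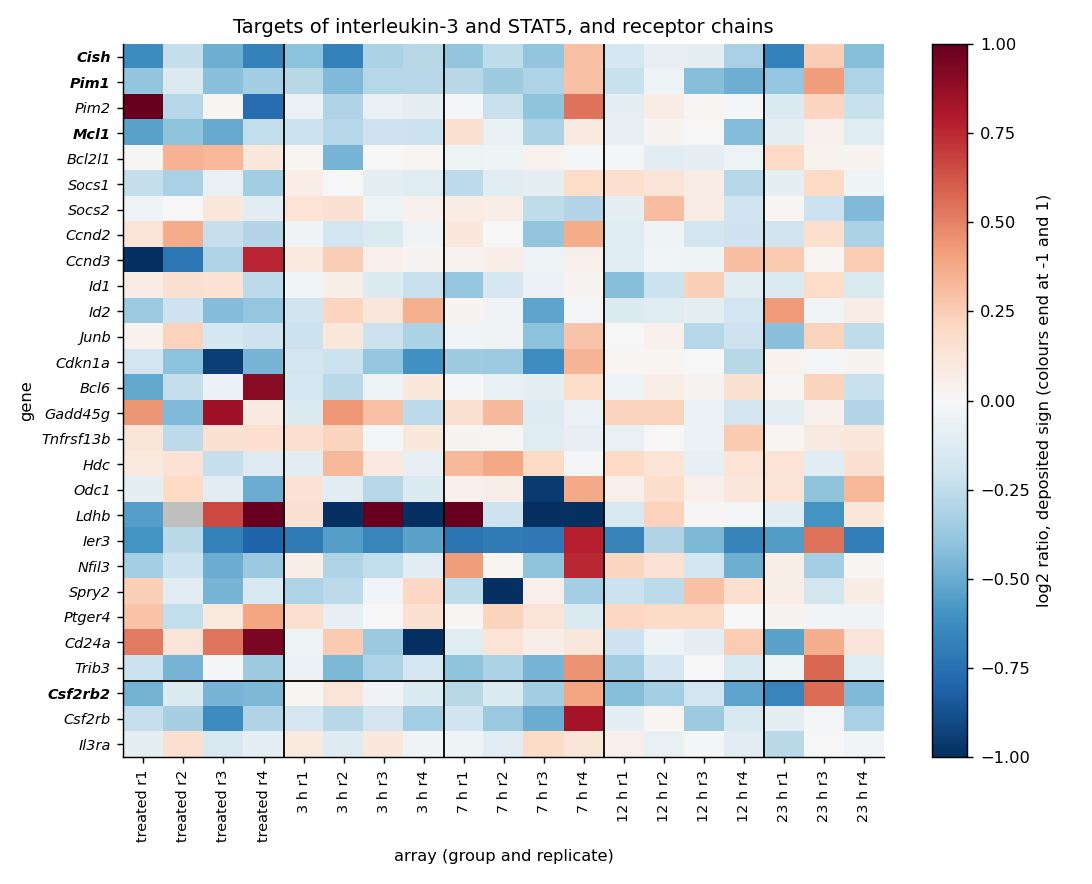
Log2 ratios with the deposited sign (colour, ending at -1 and 1) of the 25 measured interleukin-3 and STAT5 targets and, below the horizontal line, 3 receptor chains, on each of the 19 arrays, with vertical lines between groups. The 4 genes described here are in bold, and a grey cell has no value. Cish, Pim1, Ier3 and Trib3 are below 0 on every array apart from 7 h replicate 4 and 23 h replicate 3. Trib3 is almost white on treated replicate 3 (-0.018) and 12 h replicate 3 (-0.005). Most other rows hold both colours.

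Granulocyte markers lay below 0 beside Cish, Pim1 and Csf2rb2. In the mean of the 4 times on 17 arrays, 8 of 10 measured neutrophil markers passed below 0, with a median log2 ratio of -0.39 over the list. So did 2 of 5 monocyte markers and 2 of 4 genes of the mast cell list, against 0.804% of all features. None passed on the erythroid, megakaryocyte, lymphoid, pluripotency and fibroblast lists. On all 19 arrays no gene of the neutrophil, monocyte and mast cell lists passed in that mean, nor did any other feature. The neutrophil median was then -0.23. Among the markers called on 17 arrays were the granule proteins Camp (-0.68), Ltf (-0.57) and Elane (-0.49). The lysozyme Lyz2 (-0.59), from the monocyte list, and the protease Mcpt8 (-0.45), from the mast cell list, were others. At 23 h on 17 arrays 6 of the 10 neutrophil markers passed below 0, led by Ltf at -1.26, where 0.186% of all features passed. Their list median was -0.81. The 23 h group then had 2 arrays, and on the array left out, 23 h replicate 3, Ltf was at 0.97. That array was noticed from its values, so a smaller spread without it is partly built in. On all 19 arrays no feature passed at 23 h, these markers included, and the list median was -0.30. In treated cells 8 of the 10 neutrophil markers were below 0, with a median of -0.16. None of them passed there on 19 arrays, while on 17 arrays, where all 4 genes passed, 3 did so below 0: S100a9 (-0.39), Elane (-0.40) and Mpo (-0.24). Of the 5 monocyte markers Cd68 (-0.34) passed in treated cells on 19 arrays, and Cd68 and Adam8 (-0.63) on 17. Of all features, 2.38% passed below 0 there on 19 arrays and 2.34% on 17. On 19 arrays 1 of 4 lymphoid and 1 of 9 fibroblast markers also passed below 0, and 1 of 5 megakaryocyte markers above 0. The lymphoid median was -0.31 and the monocyte median -0.33. Fewer cells of a type and less RNA per cell cannot be told apart in bulk RNA, and the part of these markers in the results for the 4 genes was not tested.

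The genes most like each of the 4 over the 19 arrays, by Pearson correlation with the dye term removed among 8978 named genes, were Mvd (0.86), B9d2 (0.84) and Nisch (0.83) for Cish. For Pim1 they were Furin (0.91), Mt1 (0.91) and Lcp1 (0.91), for Mcl1 Rhbg (0.87), Plxnd1 (0.86) and Selenon (0.82), and for Csf2rb2 Plin2 (0.94), S100a9 (0.93) and Gde1 (0.91). Over 17 arrays the correlations were lower for Cish, at 0.749, 0.679 and 0.676 in the same order, and for Pim1, at 0.774, 0.707 and 0.738. Those of Mcl1 were 0.869, 0.826 and 0.867, and those of Csf2rb2 were 0.889, 0.86 and 0.819. S100a9 is also one of the neutrophil markers. The 4 genes correlated with each other at 0.82 for Cish with Pim1 over 19 arrays and 0.63 over 17. The lowest value was that of Mcl1 with Csf2rb2, at 0.41 and 0.13. The 15 time arrays share the 0 h reference and the 4 treated arrays the non-treated one, and all values of an array share its hybridisation.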

How the data were processed

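The deposited values are 1 log ratio per spot, made by the authors and read here as log2. Their base, numerator and normalization, and the genome build, were not given in the sources used here. Because the labels' protocols describe organs and control animals rather than cultured cells, each reference was read from the channel labels. Gene names came from the platform annotation: of 20205 probes, 13891 had 1 symbol, 5 several and 6309 none. Each array's repeated extreme value (8 to 29 spots) was set to missing, and arrays were centred on their median. Probes of 1 gene were averaged.

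limma 3.58.1 in R 4.3.3 (lmFit, eBayes) fitted 5 group means and a dye term on 19 arrays, with Benjamini-Hochberg adjustment over all features. A feature was tested with at most 1 array missing per group. Fits were tested on simulated data with the same spread on every array. The treated arrays were more variable than the others, so that check does not cover the pooled spread behind the treated calls. Because array ratios carry no counts, the number of arrays limits the precision. The 4 genes, the lists and the tests were chosen with earlier results of these data known, and the added alternatives after the data were seen. The genes named were all 4 members, the listed genes called (or the 2 with the smallest p where none was), and the 3 most correlated named genes per member (clone names left out). Other targets, receptor chains and markers were named after their values were seen. Replicate numbers did not pair the arrays: deviations of same-numbered arrays from their group means correlated at -0.12 to 0.22, over 0.1 in 4 of 36 pairs. Alternatives were other centring and scaling, array weights, the dye and block terms, the filter, single dyes, both readings of the signs and each array left out.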

Additional observations from a re-analysis of the deposited data

Results flagged for a closer look

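In 16 groups of 4 arrays (4 genes in 4 groups), 4 values stood further from the rest of their group than Dixon's 95% limit, where chance gives about 1 in 20. These were Pim1 at 3 h on replicate 2, with a log2 ratio of -0.44, and Pim1 at 7 h on replicate 4, an array in doubt, at 0.30. The others were Mcl1 at 3 h on replicate 2, at -0.29, and Csf2rb2 in treated cells on replicate 2, at -0.13. In treated cells replicate 2 also had the value nearest to 0 for Cish and Pim1, and without it 1456 features were called in place of 758. The 23 h group, with 3 arrays, was not tested.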

How the results depend on the processing

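The calls of Cish and Mcl1 in treated cells did not hold under several other settings, and the calls of Cish, Pim1 and Csf2rb2 over the times needed both arrays in doubt left out or turned, or for Cish 7 h replicate 4 turned. The causes were not tested. The low number of arrays, the unknown direction and log base, and the missing spot intensities limit all values, and a gene whose signal lay near background could not be told from others. Values are log2 ratios with the deposited sign, against 758 features called in treated cells, 3 at 12 h and 0 in each other comparison with all 19 arrays. Adding the replicate block, with numbers that did not pair the arrays, left Cish at -0.51 in treated cells but without its call (limma adjusted p = 0.0528), kept that of Mcl1 and changed no other call, with 606 features called in treated cells.

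In treated cells Cish and Mcl1 both lost their call with array weights (-0.53 and -0.41), arrays scaled to equal spread (-0.32 and -0.26), quantile normalization (-0.35 and -0.28), the treated arrays alone (-0.51 and -0.42), Cy3 arrays alone (-0.59 and -0.38) and array weights on 17 arrays (-0.53 and -0.41). Cish alone lost it with no centring (-0.50) and with Cy5 arrays alone (-0.43). Features called in treated cells then numbered 2 with array weights, 5 with equal spread, 3 with quantile normalization, 0 with the treated arrays alone and 10 with array weights on 17 arrays. Pim1 and Csf2rb2 gained a call in treated cells, at -0.33 and -0.38, both without the arrays in doubt and with them turned.

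Changing the signs of the Cy3 arrays, on all or on 17 arrays, called 1313 and 1170 features in treated cells, where Mcl1 lost its call (-0.045) and Cish, Pim1 and Csf2rb2 turned to 0.076, 0.059 and 0.077. Csf2rb2 turned to 0.079 at 3 h, and at 12 h Cish, Pim1 and Mcl1 turned to 0.04, 0.16 and 0.094. On all arrays Mcl1 also turned at 7 h (0.079) and in the mean of the 4 times (0.022), and Cish, Pim1 and Mcl1 turned between 23 h and 3 h (-0.15, -0.21 and -0.051). On 17 arrays Cish, Mcl1 and Csf2rb2 turned at 7 h (0.047, 0.21 and 0.071), Mcl1 at 23 h (0.011), Cish between 23 h and 3 h (-0.0047), and Pim1, Mcl1 and Csf2rb2 in the mean of the 4 times (0.021, 0.074 and 0.0071). Features called on 17 arrays were then 2 at 7 h, 2 at 23 h and 12 in the mean of the 4 times.

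Without both arrays in doubt, features called numbered 18 at 3 h, 35 at 7 h, 26 at 12 h, 30 at 23 h, 12 between 23 h and 3 h, 7 for any difference between times and 193 in the mean of the 4 times. In that mean Cish, Pim1 and Csf2rb2 gained a call (-0.37, -0.32 and -0.30), and between 23 h and 3 h Cish and Pim1 turned (-0.13 and -0.027). With both arrays turned the counts were 22, 90, 34, 47, 13, 14 and 312 in the same order. Calls were then gained by Pim1 at 7 h (-0.31), by Csf2rb2 at 12 h (-0.37) and 23 h (-0.54), and by Cish, Pim1 and Csf2rb2 in the mean of the 4 times (-0.34, -0.32 and -0.30), and Cish and Pim1 turned between 23 h and 3 h (-0.0399 and -0.037). With 7 h replicate 4 alone turned, the counts were 17 at 3 h, 31 at 7 h, 3 between 23 h and 3 h, 3 for any difference and 67 in the mean of the 4 times, where Cish gained a call (-0.30).

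Array weights called 3 features at 3 h and 37 at 12 h. Array weights on 17 arrays called 54 at 3 h, 195 at 7 h, 172 at 12 h, 59 at 23 h, 12 between 23 h and 3 h, 19 for any difference and 433 in the mean of the 4 times. There Cish gained a call at 3 h (-0.39), Cish and Pim1 at 7 h (-0.33 and -0.34), Csf2rb2 at 12 h (-0.37), Cish and Csf2rb2 at 23 h (-0.55 each), and Cish, Pim1 and Csf2rb2 in the mean of the 4 times (-0.35, -0.30 and -0.30), while Cish and Pim1 turned between 23 h and 3 h (-0.17 and -0.048).

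Cy5 arrays alone called 1 feature at 12 h, 1 at 23 h, 1 between 23 h and 3 h, 1 for any difference and 3 in the mean of the 4 times. Signs turned there for Csf2rb2 at 3 h (0.071), Mcl1 at 7 h (0.046) and, between 23 h and 3 h, Cish (-0.14) and Pim1 (-0.024). Cy3 arrays alone called 5 features at 12 h, with Csf2rb2 at 0.024 at 7 h, Pim1 and Csf2rb2 at 0.052 and 0.058 at 23 h, and Csf2rb2 at 0.15 between 23 h and 3 h, all turned. With no centring Mcl1 turned at 23 h (0.021). Equal spread called 2 features for any difference. Quantile normalization called 5 at 12 h, 2 for any difference and 1 in the mean of the 4 times. No filter on missing values called 9 at 12 h, 2 for any difference and 1 in the mean of the 4 times, and the arrays of the group alone called 0 at 12 h.

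Leaving out 1 array at a time gave 547 to 1456 called features in treated cells, 0 to 15 at 3 h, 0 to 4 at 7 h, 3 to 7 at 12 h, 0 to 4 at 23 h, 0 to 3 between 23 h and 3 h, 0 to 3 for any difference and 0 to 44 in the mean of the 4 times. Cish in treated cells ran from -0.63 to -0.42 and passed in 16 of 19 fits. Signs turned for Csf2rb2 at 3 h (-0.073 to 0.055), for Mcl1 and Csf2rb2 at 7 h (-0.094 to 0.062 and -0.25 to 0.012), for Pim1 and Csf2rb2 at 23 h (-0.35 to 0.059 and -0.55 to 0.064) and, between 23 h and 3 h, for Cish (-0.13 to 0.30), Pim1 (-0.027 to 0.38) and Csf2rb2 (-0.54 to 0.072). None of these turned values had passed.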
